A study of Mus musculus with 2 samples.

Results

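The 8 long noncoding RNAs described here fall into a nuclear set, Malat1, Neat1, Kcnq1ot1 and Meg3, and a set of snoRNA host genes, Gas5, Snhg1, Snhg8 and Snhg12. The rule that chose them lists symbols and uses no measured value, though the 8 were chosen with earlier results of these data known. Each symbol matched 1 of the 53801 Ensembl genes listed in the count files. Counts came from 2 libraries of microglia sorted from the brain after sham surgery, and each library was made from 1 mouse, so the replicates are separate animals. The mice were male on the C57BL/6 background and 8 to 10 weeks old by the series description, while the methods of the paper give an older range and both sexes. Their genotype was Cx3cr1(CreER/wt), in which a tamoxifen-inducible Cre takes the place of one Cx3cr1 allele, so other cells that express Cx3cr1 make it too. Both mice had received tamoxifen at 75 mg/kg daily for 4 days, starting 14 days before surgery, and the cells were collected 3 days after it. Cells of the left hemisphere were sorted as CD11c–Ly6G–CD11b+CD45low. The treatment label of both samples reads none and their titles read sham. The stroke (MCAO) libraries were not analysed here, so the data hold 1 group, and a difference between the libraries is a spread between 2 mice and not an effect of a condition. No test was run.

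Malat1 and Neat1 are transcribed from neighbouring genes and stay in the nucleus. Malat1 gathers in nuclear speckles, where splicing factors are stored, and Neat1 is the scaffold of paraspeckles. Kcnq1ot1 and Meg3 are imprinted: Kcnq1ot1 is made from the paternal allele, antisense to Kcnq1, and silences genes around it, and Meg3 is made from the maternal allele of the Dlk1-Meg3 cluster and is known in the brain mainly from neurons. The snoRNA hosts have another role. Their introns are processed into small nucleolar RNAs, which guide the modification of ribosomal RNA, while their spliced exons carry no long reading frame and are short-lived. Many such hosts begin with a run of pyrimidines, the terminal oligopyrimidine (5′TOP) start that they share with mRNAs of the translation machinery.

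Sham library 1 held 23381026 counts on genes and library 2 held 41142609, so counting error is smaller in library 2. Levels are given as CPM, a count divided by the library's total on genes and multiplied by 1000000. Where nothing was counted, as many as 3 counts remain possible, which is 0.128 CPM in library 1 and 0.0729 CPM in library 2. A gene with at least 10 counts in both libraries is called counted. There were 13445 such genes, and all 8 lncRNAs were among them. The 10 microglia markers summed to 51226 and 47240 CPM, and all 10 were counted. The 10 neutrophil markers, of cells the Ly6G gate should remove, summed to 4555 CPM in library 1 and 61834 in library 2, and all 10 were over 2-fold higher in library 2. The 6 choroid plexus markers summed to 44.6 and 584 CPM, the 9 neuron markers to 4.23 and 6.44 CPM (Gad1 at 0 in library 1), the 6 endothelial markers to 23.1 and 16.9 CPM (Tek at 0 in both), and the 6 oligodendrocyte markers to 235 and 242 CPM. The 6 astrocyte markers summed to 232 and 190 CPM, the 6 border macrophage markers to 642 and 281 CPM, the 5 B cell markers to 570 and 778 CPM, and the 5 T cell markers to 4.58 and 5.61 CPM (Cd3e and Cd8a at 0 in both). In sorted bulk cells, fewer cells of a type and less RNA per cell cannot be told apart. How much of any lncRNA level came from cells other than microglia was not tested.

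The starts of the 4 snoRNA hosts are shown first, since all 4 hold the letters TATA and 3 hold the pyrimidine run defined below. That of Meg3, which holds both, and that of Malat1, which holds neither, follow. Each sequence runs from 40 bases before to 30 bases after the start that RefSeq annotates on GRCm38.p6, 5′ to 3′ on the gene's own strand. Capitals mark the letters TATA beginning 35 to 20 bases upstream, and a run of at least 5 C or T letters that begins with C within 5 bases of the start. RefSeq has a window for 7 of the 8 genes. Neat1 has none in the table used. Gas5 and Meg3 have 2 windows each, and the one with capitals is printed.
Gas5, chr1:161035126-161035195, plus strand: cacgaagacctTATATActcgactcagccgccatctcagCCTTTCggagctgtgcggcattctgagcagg
Snhg12, chr4:132308638-132308707, plus strand: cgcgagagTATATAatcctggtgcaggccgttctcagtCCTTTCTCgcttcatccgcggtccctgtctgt
Snhg8, chr3:123508307-123508376, minus strand: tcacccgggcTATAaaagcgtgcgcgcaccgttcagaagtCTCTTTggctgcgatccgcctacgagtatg
Snhg1, chr19:8723447-8723516, plus strand: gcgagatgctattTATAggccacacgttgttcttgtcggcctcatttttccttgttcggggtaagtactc
Meg3, chr12:109540956-109541025, plus strand: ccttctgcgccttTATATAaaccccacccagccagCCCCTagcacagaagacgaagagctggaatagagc
Malat1, chr19:5802643-5802712, minus strand: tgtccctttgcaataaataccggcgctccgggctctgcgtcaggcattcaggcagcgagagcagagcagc

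All 4 hosts held TATA in 1 window, first at -29 in Gas5, -27 in Snhg1, -30 in Snhg8 and -32 in Snhg12. The run of C and T was found in 3 of them. It was CCTTTC from -1 in Gas5, CTCTTT from 1 in Snhg8 and CCTTTCTC from -2 in Snhg12. In Snhg1 an A broke the pyrimidines at the start. The stretch after it, tttttcctt, begins with T, so no run that meets the definition above was found. Meg3 held both as well, with TATA at -27 and a run of 5 letters, CCCCT, just upstream of its start. Neither was found in Malat1, in Kcnq1ot1, or in the other windows of Gas5 and Meg3. Of all 32851 RefSeq windows, of 27025 genes, 5.08% held TATA in this position, 14.7% held the run and 0.828% held both. The letters and windows searched were chosen after the sequences of these genes had been seen, so these shares describe the windows and test nothing.

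The hosts also shared their gene structure. Inside the 4 genes and on their strand, GENCODE M21 places 24 snoRNA genes, which carry 22 distinct names, since Snord80 in Gas5 and Snora16a in Snhg12 each have 2 identifiers. Gas5 held 10 of the 24, Snhg1 held 8, Snhg12 held 5 and Snhg8 held 1. In the annotated transcript with the most exons of each host, all 24 lay within introns. Of its 26 introns in the 4 hosts together, 22 held a snoRNA. The spliced exons of these transcripts were short, with 502 bases for Gas5, 605 for Snhg1, 448 for Snhg8 and 606 for Snhg12. The nuclear lncRNAs held no snoRNA gene on their strand. Their longest annotated transcripts were 6983 bases for Malat1, 20771 for Neat1, 93092 for Kcnq1ot1 and 14548 for Meg3, and those of Malat1, Neat1 and Kcnq1ot1 cover the whole gene without an intron.

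**Figure D1:**
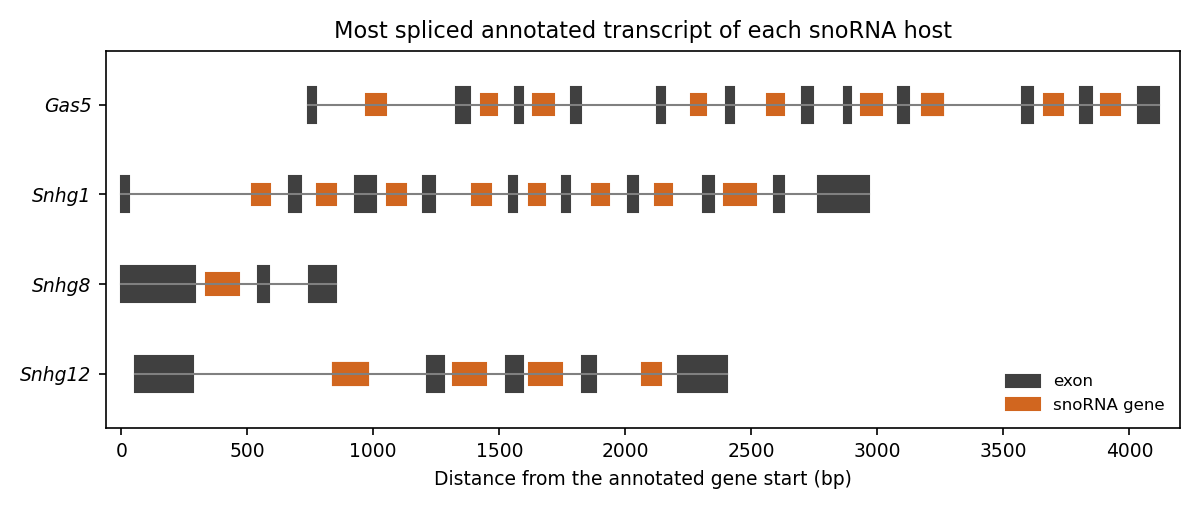
Exons (grey boxes) of the annotated transcript with the most exons in each snoRNA host and the snoRNA genes on the same strand (orange boxes), by distance from the annotated gene start in bp. All 24 snoRNA genes lie between exons, and 22 of the 26 introns hold one.

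None of the 24 snoRNA genes had a count in either library. Of the 1558 snoRNA and scaRNA genes in the files, 85.7% had none in both libraries, and 16 were counted. The cDNA was primed from poly(A) tails, which mature snoRNAs lack. Other annotated transcripts of the hosts keep these introns, as retained introns or within longer exons, so 15.2% (Snhg8) to 20.9% (Snhg1) of the annotated exon length of a host is shared with a snoRNA gene, and a read there may have been counted for neither. The counts of the hosts are counts on the whole gene, and spliced and unspliced RNA cannot be told apart in them.

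Malat1 (chromosome 19 of GRCm38, 5795690 to 5802672, minus strand) was by far the most abundant of the 8 lncRNAs. Its 12057 counts in library 1 gave 516 CPM (95% exact Poisson interval 507 to 525), and its 16659 counts in library 2 gave 405 CPM (399 to 411), with a mean of 460 ± 78.3 CPM (SD, n = 2 mice). These intervals cover counting error only, since amplified reads are not independent molecules, and here they are far narrower than the spread between the mice. Malat1 ranked second of 12507 lncRNA genes by mean CPM and stood at percentile 97.9 of all counted genes. Per kb of annotated exon it ranked 6 among the 1291 counted lncRNA genes, at percentile 94.6 of all counted genes. It alone took 5.94% of all lncRNA counts in library 1 and 7.62% in library 2. By mean CPM the gene ranked above it was Gm26917, with 1886 and 269 CPM. GENCODE M21 annotates it as a lncRNA gene, and whether its reads came from such an RNA or another kind was not tested. Without Gm26917, a comparison added after its values were seen, the share of Malat1 was 7.60% and 8.03%.

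Neat1 (chromosome 19, 5824708 to 5845478, minus strand), the neighbour of Malat1, had 582 and 859 counts. Its level was 24.9 CPM in library 1 (22.9 to 27.0) and 20.9 CPM in library 2 (19.5 to 22.3), or 22.9 ± 2.84 CPM (SD, n = 2). By CPM this is close to the middle of the counted genes, at percentile 55.6. Per kb of annotated exon, Neat1 stood lower, at percentile 25.4. Neat1 makes a short, polyadenylated RNA and a long one without a poly(A) tail that paraspeckles need. Gene counts do not separate them, and Malat1 too ends without a tail, so the levels of both rest on how often such RNA was copied by a primer for poly(A).

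Kcnq1ot1 (chromosome 7, 143203458 to 143296549, minus strand) differed most of the 8 between the mice. The 721 counts of library 1 gave 30.8 CPM (28.6 to 33.2), and the deeper library 2 had 391, which gave 9.50 CPM (8.58 to 10.5). These intervals were far apart. The mean was 20.2 ± 15.1 CPM (SD, n = 2). Its level in library 1 was 3.24 times that in library 2. The single annotated transcript is unspliced and holds 10 runs of at least 10 A letters, where a primer for poly(A) could also bind. Malat1 and Snhg12 had 1 such run in their longest transcript, Meg3 had 6 and the other 4 had none. Of the longest transcripts of 13374 lncRNA genes, 10.9% held any. These counts take no account of length, and the transcripts of Kcnq1ot1 and Meg3 have 93092 and 14548 bases. Whether either holds more runs than other transcripts of its length was not tested.

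Meg3 (chromosome 12, 109541001 to 109571726, plus strand) was near the limit of counting. Library 1 had 13 counts and library 2 had 17, which gave 0.556 CPM (0.296 to 0.951) and 0.413 CPM (0.241 to 0.662), with overlapping intervals. Both libraries were above the limit of 3 counts. The mean level, 0.485 ± 0.101 CPM (SD, n = 2), stood at percentile 2.03 of the counted genes. The rest of its cluster was at or near 0: Dlk1, Rtl1, Rian and Dio3 had no count in either library, and Mirg had 0 and 2.

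Gas5 (chromosome 1, 161034422 to 161038539, plus strand) was the most abundant of the 4 snoRNA hosts, and its level exceeded that of Neat1 in both libraries. Its level was 34.7 CPM (32.3 to 37.2) in library 1, from 811 counts, and 52.7 CPM (50.5 to 54.9) in library 2, from 2167, and these intervals did not overlap. The mean was 43.7 ± 12.7 CPM (SD, n = 2), percentile 71.4 of the counted genes. Gas5 made up most of the host total of 45.0 and 63.0 CPM in libraries 1 and 2. The other 3 hosts together had 10.3 CPM in each library.

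Snhg8 (chromosome 3, 123507552 to 123508404, minus strand), which carries Snora24, had 119 and 163 counts. Its level was 5.09 CPM (4.22 to 6.09) and 3.96 CPM (3.38 to 4.62), or 4.53 ± 0.797 CPM (SD, n = 2), and it was the only host lower in library 2. Snhg1 (chromosome 19, 8723475 to 8726443, plus strand), which carries Snord22 and 7 others, had 61 and 152 counts. Its level was 2.61 CPM (2.00 to 3.35) and 3.69 CPM (3.13 to 4.33), or 3.15 ± 0.768 CPM (SD, n = 2). The counting intervals of the 2 libraries overlapped for both genes.

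Snhg12 (chromosome 4, 132308678 to 132311024, plus strand), which carries Snora16a, Snora44, Snora61 and Snord99, differed least of the 8 between the mice by CPM, though not with TMM or DESeq2 scaling, where Neat1 did. It had 60 and 108 counts, or 2.57 CPM (1.96 to 3.30) and 2.63 CPM (2.15 to 3.17), and 2.60 ± 0.0416 CPM (SD, n = 2). With so few counts the interval of either library is much wider than this difference. The start of Snhg12 in the files lies inside the gene as GENCODE M21 draws it so the annotation the reads were counted on differed from M21 here.

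**Figure D2:**
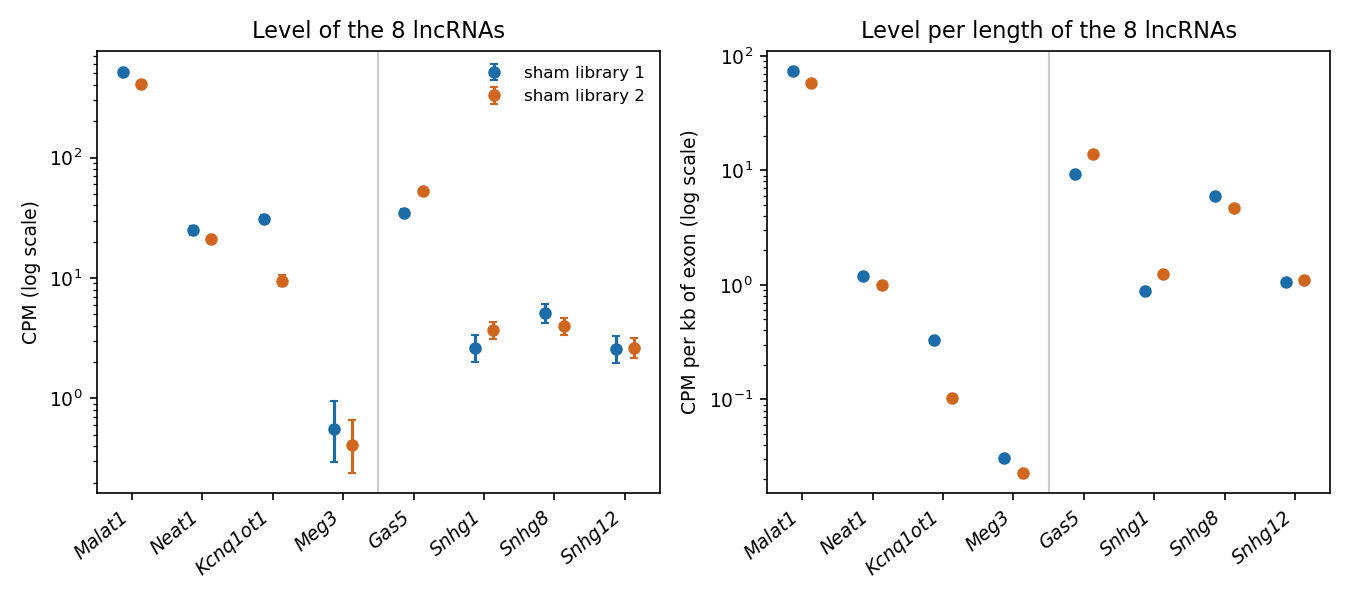
Left, CPM of each lncRNA in sham library 1 (blue) and library 2 (orange) on a log axis, with bars for the 95% exact Poisson interval of the count. Right, the same levels per kb of annotated exon, on a log axis. Malat1 stands above the other genes on both scales, and Meg3 is lowest.

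Levels of different genes are compared per length, as CPM per kb of all annotated exons. Malat1 led with 73.8 and 58.0 CPM per kb, followed by Gas5 with 9.23 and 14.01 and Snhg8 with 5.97 and 4.64. Next came Neat1 with 1.20 and 1.005, Snhg12 with 1.07 and 1.09 and Snhg1 with 0.879 and 1.24. The order of these last 3 was not resolved, because their ranges over the 2 libraries overlapped. Kcnq1ot1 had 0.331 and 0.102 CPM per kb and Meg3 had 0.0307 and 0.0228. The ranges of all other neighbours in this order were apart. This order rests on the length used. Per kb of the annotated transcript with the most exons, Neat1, at 24.2 and 20.3 CPM per kb, stood above Snhg8, at 11.4 and 8.84. That transcript of Neat1 holds 1030 bases, while its counts come from the whole gene of 20771, so this measure raises its value. The ranges of Meg3 (0.293 and 0.218) and Kcnq1ot1 (0.331 and 0.102) overlapped on it. Gas5, whose annotated exon length holds many retained introns, had a mean of 11.6 CPM per kb of all exons and 17.1 per kb of its longest transcript. Per kb of its spliced transcript of 502 bases it had 69.1 and 105 CPM. Malat1 had 786 and 617 CPM on that measure, from a transcript of 656 bases in a gene of 6983.

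The log2 ratio of CPM in library 2 over library 1 sets the lncRNAs beside all other genes. It was -0.35 for Malat1 (95% exact counting interval -0.38 to -0.31), -0.25 for Neat1 (-0.41 to -0.10), -1.70 for Kcnq1ot1 (-1.88 to -1.52) and -0.43 for Meg3 (-1.56 to 0.73). All 4 nuclear lncRNAs were thus lower in library 2 on the CPM scale, and the interval of Meg3 included 0. The ratio was 0.60 for Gas5 (0.49 to 0.72), 0.50 for Snhg1 (0.06 to 0.96), -0.36 for Snhg8 (-0.71 to -0.01) and 0.03 for Snhg12 (-0.44 to 0.51). The median of all counted genes was -0.26 on this scale, so 4 of the 8 lncRNAs lay above it and 4 below. The nuclear set had a median of -0.39 and the hosts of 0.27. This order turned when the median of genes of like GC content and length was taken off, to 0.56 for the nuclear set and 0.03 for the hosts.

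Only Kcnq1ot1 of the 8 was over 2-fold apart between the libraries, beside 31.7% of all counted genes. It was lower in library 2, as were 25.9% of all counted genes. No member was over 2-fold higher, as were 5.74% of all counted genes. Relative to the all-gene median, Kcnq1ot1 lay 1.44 lower on the log2 scale (-1.44), Gas5 0.87 and Snhg1 0.76 higher. Neat1 was 0.01 from it, closer than all but 0.759% of the counted genes. The distance of Kcnq1ot1 was larger than that of 84.5% of the counted genes. Of the 1291 counted lncRNA genes, 31.0% were over 2-fold lower in library 2 and 3.41% over 2-fold higher, with a median of -0.56. The median of protein-coding genes was -0.23.

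The ratio moved with transcript length over all genes, and the lncRNAs span that range. Counted genes were split by length into 10 bins of like size. In the bin of longest transcripts, which holds all 4 nuclear lncRNAs, the median was -1.05, and in the bin from 1656 to 2143 bases it was 0.17. Malat1, Neat1 and Meg3 therefore lay above the median of genes of like length and GC content, by 0.47, 0.76 and 0.65, although all 3 were lower in library 2 by CPM. Kcnq1ot1 stayed below it by 1.15 on the log2 scale (-1.15). In the bin of longest transcripts, 297 of 1344 genes had a lower ratio than Kcnq1ot1. Of the 11 counted genes with a transcript over 20 kb, which include Kcnq1ot1 itself and Neat1, none had a lower ratio. Their median was -0.62. This comparison was added after the values were seen. Gas5 and Snhg1 lay above genes of like length and GC by 0.28 and 0.27, while Snhg8 (-0.30) and Snhg12 (-0.21) lay below. After this adjustment 22.4% of all counted genes were still over 2-fold apart, and 12.7% were lower in library 2. What made long transcripts lower in library 2 was not tested.

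**Figure D3:**
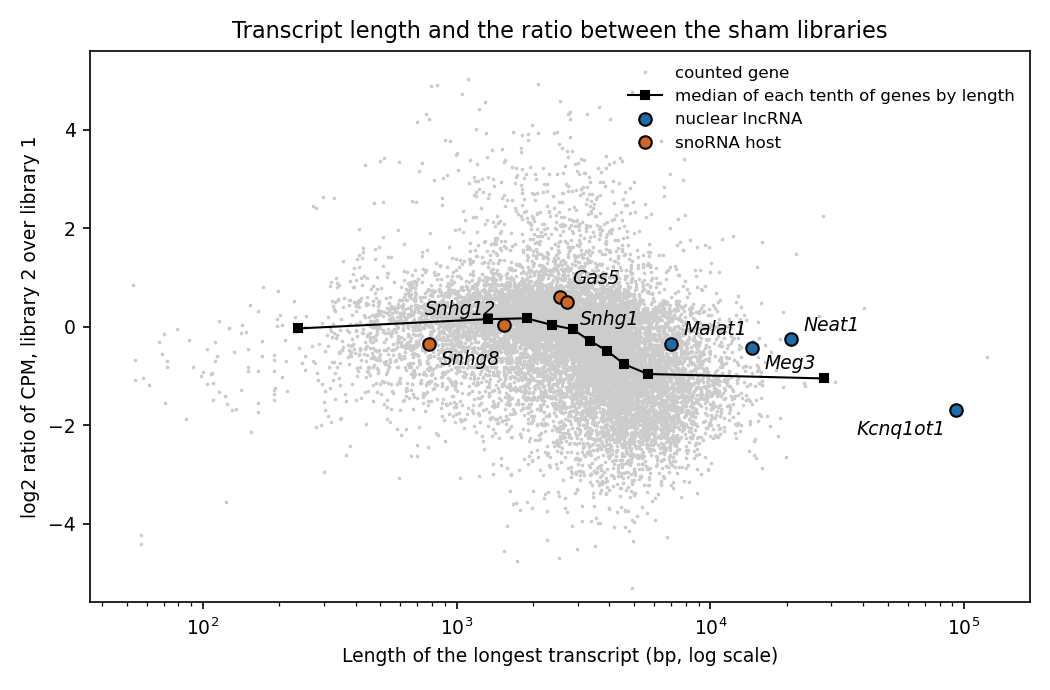
The log2 ratio of CPM, library 2 over library 1, against the length of the longest transcript (log axis) for all counted genes (grey), with the median of each of 10 length bins (black squares). Malat1, Neat1 and Meg3 lie above the median of -1.05 of the longest bin and Kcnq1ot1 below it, and the 4 hosts (orange) lie in the range of shorter transcripts.

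With TMM or DESeq2 scaling, which centre the ratios of all genes near 0, Kcnq1ot1 stayed over 2-fold lower in library 2 (-1.44 with either). Gas5 was 0.86 and 0.87 and Snhg1 0.76 with either. Neat1, at -0.25 by CPM, was at 0.004 and 0.009. Taking off the median of genes of like GC content and length turned the sign of Malat1, Neat1, Meg3 and Snhg12, and the scalings turned that of Neat1, so the direction of these 4 between the mice is not fixed by the data. Snhg8 and Snhg1 kept their signs, but their direction is not firm either. Snhg8 was at -0.10 with TMM or DESeq2, and Snhg1 at 0.27 after the GC and length adjustment. Both values lie nearer to 0 than the width of the gene's counting interval. Totals without the 10 neutrophil markers, added after the values were seen, gave -1.61 for Kcnq1ot1 and 0.69 for Gas5.

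**Figure D4:**
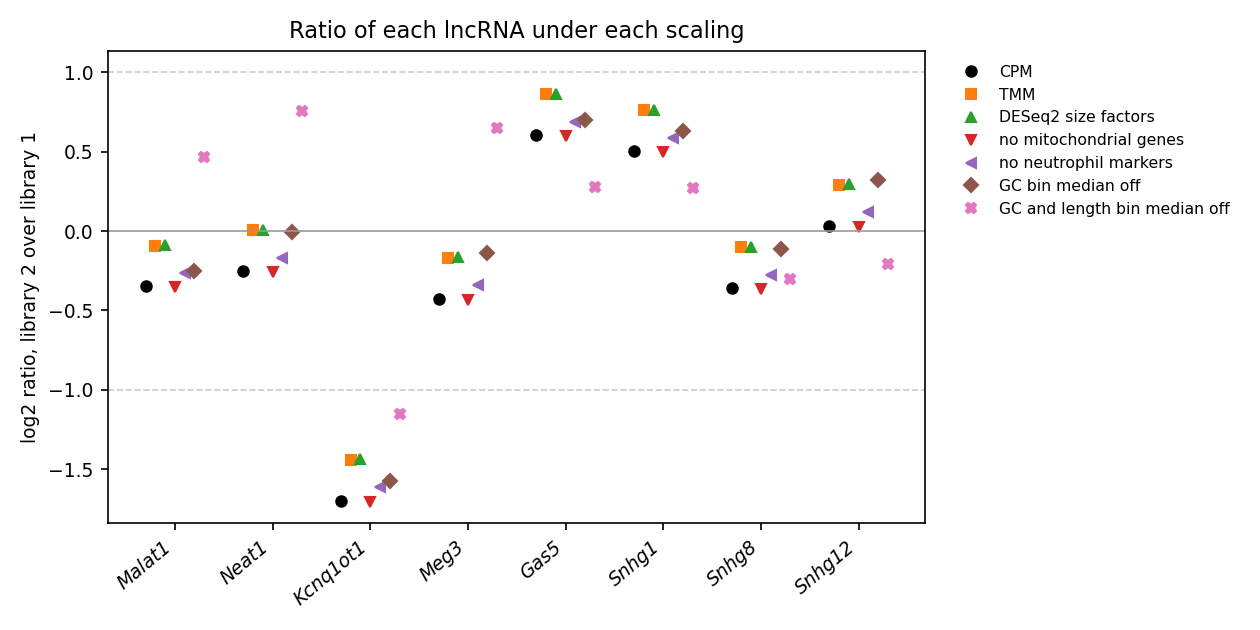
The log2 ratio, library 2 over library 1, of each lncRNA under CPM (black) and under 6 alternative scalings or adjustments, with dashed lines at 2-fold. Kcnq1ot1 lies below the 2-fold line and Gas5 and Snhg1 lie above 0 under each of them. Malat1, Neat1, Meg3 and Snhg12 lie on both sides of 0, and Snhg8 lies below 0 under each.

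The genes around the lncRNAs were read for the same libraries. Kcnq1, whose span covers the whole of Kcnq1ot1 on the other strand, had 0 counts in library 1 and 1 in library 2, so the counts of Kcnq1ot1 do not come with counts on Kcnq1 exons. Whether reads were counted by strand is not given in the sources used here, and 1.20% of the length of Kcnq1ot1 is shared with annotated exons on the other strand. Of 9 genes of its imprinted cluster, 6 were counted. Cd81, a tetraspanin gene, had 3821 and 3800 CPM, Nap1l4 138 and 162 CPM and Tssc4 48.3 and 55.9 CPM. Cdkn1c, a cell cycle inhibitor, had 6.59 and 8.63 CPM, and Phlda2 had no count. Over the 6 counted genes the median log2 ratio was 0.10. Slc22a18, 1 of the 6, was over 2-fold lower in library 2, beside 25.9% of all counted genes. No gene was over 2-fold higher, beside 5.74%. Here and for the lists that follow, genes named for passing 2-fold were chosen after their values were seen.

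The start of Snhg1 lies 106 bases from that of Slc3a2, which encodes an amino acid transporter subunit and is transcribed the other way. Slc3a2 had 607 and 765 CPM, a log2 ratio of 0.33 beside 0.50 for Snhg1. The GENCODE M21 gene start of Gas5 lies 427 bases inside Zbtb37, which is on the other strand. The RefSeq start printed for Gas5, at 161035166, lies beyond this overlap. Zbtb37 had 11.7 and 9.84 CPM, a log2 ratio of -0.25 beside 0.60 for Gas5. Frmd8os starts 145 bases from Neat1 on the other strand and had 16 and 13 counts.

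Of 17 other snoRNA host genes listed, 15 were found and 9 were counted. The most abundant were Snhg5 with 9.92 and 12.4 CPM, Zfas1 with 9.41 and 8.41 CPM and Snhg17 with 6.07 and 6.37 CPM, all below Gas5. Their median log2 ratio was 0.33, beside 0.27 for the 4 hosts above and -0.26 for all counted genes, and all 9 lay above the latter. After the GC and length adjustment the 9 had a median of 0.48 and the 4 hosts of 0.03. Epb41l4aos, 1 of the 9, was over 2-fold higher in library 2, beside 5.74% of all counted genes. None was over 2-fold lower, beside 25.9%. Of a list of 21 other genes annotated as lncRNAs, Gm26917 among them, 20 were found and 12 counted. Gm26917, Tug1 and Norad were the most abundant, Tug1 with 103 and 24.7 CPM and Norad with 92.5 and 32.0 CPM. These 3, Firre and Peg13 were over 2-fold lower in library 2, beside 31.0% of the counted lncRNA genes. None was over 2-fold higher, beside 3.41% of them. The median of the 12 was -0.43, beside -0.56 for all counted lncRNA genes, and -0.17 after the GC and length adjustment, beside -0.53. Imprinted Peg13 differed more than Kcnq1ot1, with 40.5 and 3.01 CPM.

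The protein partners of these RNAs were read from lists drawn up by known role. All 10 paraspeckle protein genes were counted, with a median log2 ratio of -0.12. Hnrnpk had 829 and 979 CPM, Hnrnpm 123 and 195 CPM and Nono, a core paraspeckle protein, 151 and 139 CPM. Of the 10, 3 were over 2-fold lower in library 2, near the 25.9% of all counted genes, Sfpq and Rbm14 among them, and none higher. All 11 nuclear speckle protein genes were counted, with a median of 0.20. Mbnl1 had 436 and 227 CPM, Son 284 and 231 CPM and Srrm2 281 and 212 CPM. Of the 11, Srsf2 alone was over 2-fold lower in library 2 (-3.56), beside 25.9% of all counted genes. Srsf7 alone was over 2-fold higher (1.12), beside 5.74%.

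All 10 genes of the snoRNP proteins, which bind the snoRNAs cut from the hosts, were counted, with a median of -0.25. Nop56 had 130 and 132 CPM, Fbl, the methyltransferase of box C/D snoRNPs, 73.0 and 53.6 CPM and Snu13 56.6 and 62.3 CPM. Naf1, 1 of the 10, was over 2-fold lower in library 2, beside 25.9% of all counted genes, and none higher, beside 5.74%. The genes of nonsense-mediated decay, the pathway that degrades spliced host RNAs, had a median of -1.03, or -0.14 after the median of genes of like GC content and length was taken off. Upf1, its central helicase, had 74.5 and 4.45 CPM, and it was 1 of 5 among the 10 genes that were over 2-fold lower in library 2, beside 25.9% of all counted genes. Smg1, Smg5 and Smg9 were among the 5, and none was over 2-fold higher. The 14 listed 5′TOP mRNAs outside the ribosomal proteins, whose starts were not searched here, had a median of -0.52. Among them Eef1a1 had 1272 and 816 CPM, Eef2 577 and 242 CPM and Rack1 258 and 121 CPM. Eef2, Rack1 and Eif4b, 3 of the 14, were over 2-fold lower in library 2, beside 25.9% of all counted genes. None was over 2-fold higher, beside 5.74%. After the GC and length adjustment, Firre, Sfpq, Rbm14, Srsf7, Smg1, Smg5, Smg9, Eef2, Rack1 and Eif4b were no longer over 2-fold apart, while Upf1 (-2.40), Srsf2 (-3.75) and Naf1 (-2.04) still were.

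**Figure D5:**
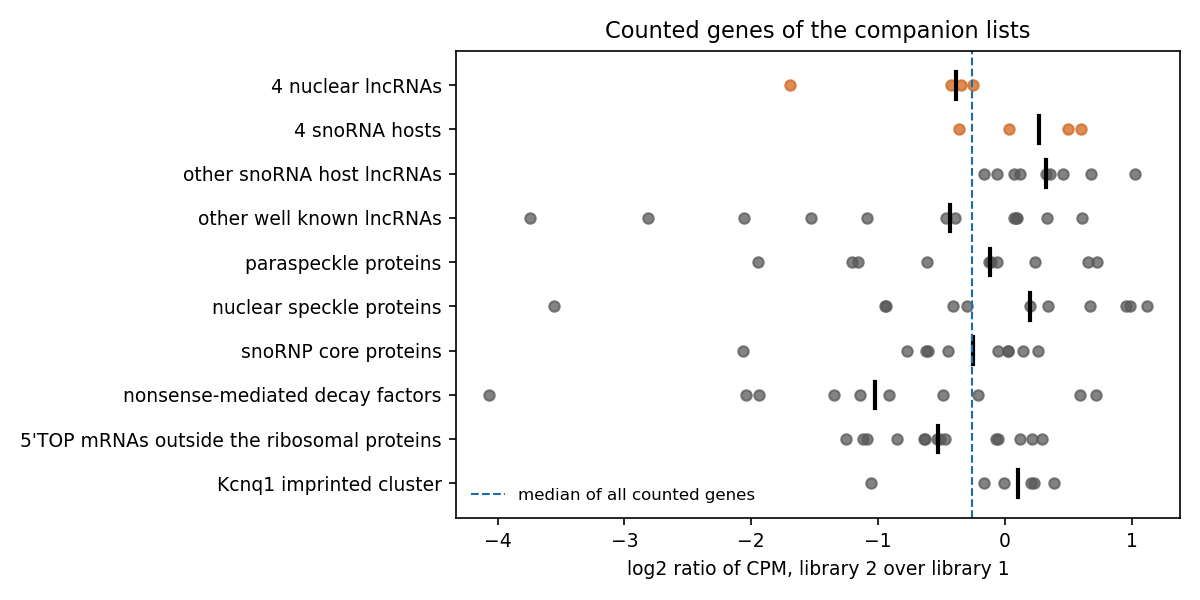
The log2 ratio of CPM, library 2 over library 1, of each counted gene in each list, with the median of the list as a black bar and that of all counted genes (-0.26) as a dashed line. The 4 snoRNA hosts and the 9 other hosts have medians of 0.27 and 0.33, and the nonsense-mediated decay genes of -1.03.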

How the data were processed

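RNA of sorted microglia from 2 sham mice was sequenced after SMART-Seq HT cDNA synthesis and tagmentation. Per the paper's methods and the submitters' processing notes, the authors mapped reads to GRCm38 with HISAT2 and assigned them to genes with HTSeq. Each deposited file lists 1 raw count for every Ensembl gene, not normalized, and versions, annotation release and strand setting are not given in the sources used here. Starts in the files count from 0 and are printed from 1. Symbols and exons came from GENCODE M21 (53620 of 53801 identifiers matched), promoter windows from RefSeq.

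CPM were counts divided by 23381026 and 41142609, with mean and SD. Poisson and ratio intervals were exact at 95%. With 1 group, no test was run. The longest transcript of a gene set its length and GC content, in 10 bins each, with bins of under 20 genes replaced by the GC bin. The computation of the ratio and of its adjustment was checked on simulated counts with known ratios and a GC trend, which it recovered, with no length trend simulated. All 8 members were named, with at most the 3 genes of highest mean CPM in each list and the genes that overlap a member or start within 2000 bases of its start. Genes past 2-fold were named in addition, after their values were seen. Values of some single list genes are not reported here. The members and lists were chosen with earlier results of these data known. Snhg16, Norad and Oip5os1 were matched through RefSeq synonyms, and Snhg4, Snhg7 and Cytor were not matched. Tools were Python 3.11.15, numpy 2.4.6, scipy 1.17.1, pandas 2.3.3, matplotlib 3.10.9, R 4.3.3, edgeR 4.0.16 (TMM) and DESeq2 1.42.0 (size factors). Alternatives were these scalings, other totals, filters and lengths, GC and length adjustment, and leaving out each library.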

Additional observations from a re-analysis of the deposited data

How the results depend on the processing

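No paired analysis was possible because only 1 group was analysed. With totals that leave out the 100 genes of highest mean CPM, the summed level of the 8 lncRNAs moved from 558 to 849 CPM, that of the nuclear set from 504 to 765 CPM and that of the hosts from 54.0 to 83.6 CPM, because the totals are smaller. Without one library, these sums were 499 to 617, 436 to 572 and 45.0 to 63.0 CPM, which with 2 libraries says nothing about stability. The other scalings moved the sums by less than 1 SD. The median log2 ratio of the 8 was -0.30 by CPM, -0.04 with TMM and 0.28 after the GC and length adjustment. Under each alternative 1 of the 8 was past 2-fold. The number of all counted genes past 2-fold was 4257, and 7302 with at least 1 count in both libraries or 2713 with at least 100, which test more and fewer genes. Of 48 alternative values of single log2 ratios, 15 lay outside the counting interval of the ratio. Depth limits Meg3 most, with 13 and 17 counts, and 2 mice limit every mean.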
